A study of Mus musculus with 14 samples.

Results

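The genes followed here, 10 in number, encode enzymes and transporters that make the lipids of the epidermal barrier: Sptlc3, Elovl4, Cers3, Ugcg, Abca12, Pnpla1, Abhd5, Alox12b, Aloxe3 and Acer1. They were taken by name, with earlier results of these data known, and all 10 were found among the 26252 genes of the count table. The embryos were wild-type mice of the strain C57BL/6JOlaHsd at E14.5, and RNA of sorted epithelial cells from their dorsal skin had been sequenced. The 7 placode-enriched libraries hold cells sorted as positive for the adhesion molecule MAdCAM-1, and the 7 interfollicular epithelium (IFE) libraries hold the negative cells. Each library is a pool of 3 to 4 littermates, so single embryos are not resolved, and each placode-enriched library has an IFE library with the same title code, giving 7 pairs.

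The outer skin barrier is a stack of dead, cornified cells sealed by lipid sheets made of ceramides, cholesterol and free fatty acids. Its ceramides are unusual. Keratinocytes hydroxylate the far end of an extremely long fatty acid and join that acid to a sphingoid base. They attach linoleate at the hydroxylated end, cap the molecule with glucose and pack it into lamellar granules. After secretion the linoleate is oxidised by lipoxygenases and the ceramide is bound to the cornified envelope. Loss of many of these enzymes causes ichthyosis in humans, and loss in mice often leads to death from water loss soon after birth. At the stage sampled the epidermis is stratifying and has no working barrier, and placodes, the buds of future hair follicles, are forming among the basal cells.

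Of the 10 genes, 9 passed the filter on low counts, and 8 of these were lower in the placode-enriched cells at an adjusted p under 0.05, while 0 were higher (edgeR's quasi-likelihood test, blocked by pair). Over all 15382 genes tested, 31.1% differed, 15.6% being lower and 15.5% higher. The median log2 fold change was -1.86 for the 9 tested genes and -0.02 for all genes tested. The fitted log2 fold changes ran from -5.29 for Acer1, on 29 placode-enriched reads, to -0.58 for Ugcg. By group means Pnpla1 was lowest relative to IFE, at 3.70% of the IFE mean, against 4.57% for Acer1. In 7 of the 9 every placode-enriched library lay below every IFE library, a pattern seen in 7.29% of all genes tested. The levels are averages over sorted cells, in which fewer cells of a type and less RNA per cell cannot be told apart.

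The windows directly upstream of the gene start are shown for 4 genes, so that 3 with deep falls (Pnpla1, Abca12 and Elovl4) can be read beside Cers3, whose fall was shallow. Each is 250 bases of RefSeq sequence (GRCm38.p6), written 5′ to 3′ on the gene's own strand and ending at the base before the start, and capitals mark any match to the motifs searched.
Pnpla1: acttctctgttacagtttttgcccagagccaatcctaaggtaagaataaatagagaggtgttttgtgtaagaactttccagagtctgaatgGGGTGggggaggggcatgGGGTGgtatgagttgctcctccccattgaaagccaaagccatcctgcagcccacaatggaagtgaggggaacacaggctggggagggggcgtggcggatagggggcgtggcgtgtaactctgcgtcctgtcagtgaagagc
Abca12: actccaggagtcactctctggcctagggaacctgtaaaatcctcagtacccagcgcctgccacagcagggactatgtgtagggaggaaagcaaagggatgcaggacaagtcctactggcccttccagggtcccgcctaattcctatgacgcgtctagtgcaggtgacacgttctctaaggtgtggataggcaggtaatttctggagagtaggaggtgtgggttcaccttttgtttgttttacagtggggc
Elovl4: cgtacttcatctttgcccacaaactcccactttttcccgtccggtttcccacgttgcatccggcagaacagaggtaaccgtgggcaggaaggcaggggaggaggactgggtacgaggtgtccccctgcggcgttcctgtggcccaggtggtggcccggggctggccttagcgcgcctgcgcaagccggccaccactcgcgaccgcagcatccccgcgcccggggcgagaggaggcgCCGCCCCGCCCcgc
Cers3: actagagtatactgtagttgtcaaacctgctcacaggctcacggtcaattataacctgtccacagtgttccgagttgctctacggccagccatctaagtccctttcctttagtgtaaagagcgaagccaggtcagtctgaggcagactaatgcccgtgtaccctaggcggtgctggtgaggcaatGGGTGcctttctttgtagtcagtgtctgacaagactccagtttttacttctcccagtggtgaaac

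The Pnpla1 window lies at chr17:28858161-28858410 on the plus strand and overlaps an exon of the antisense transcript Pnpla1os. The Abca12 window lies at chr1:71414911-71415160 on the minus strand, the Elovl4 window at chr9:83806306-83806555 on the minus strand, and the Cers3 window at chr7:66743254-66743503 on the plus strand. The 4 windows differ in composition, with a GC content of 54.0% for Pnpla1, 53.2% for Abca12, 69.6% for Elovl4 and 49.6% for Cers3, against a median of 52.4% over 32817 RefSeq windows of this length. Windows were found for 9 of the 10 genes, and 6 motifs were searched on both strands. They end at RefSeq starts, which can differ from GENCODE, the source of the gene positions given below. For Elovl4 the RefSeq start is 83806305 and the GENCODE start 83806277. The windows of Ugcg, Alox12b and Abhd5 overlap GENCODE exons of their own genes. The GC box (CCGCCC) stood in 4 of the 9 windows, those of Ugcg, Alox12b and Abhd5 among them, and in 32.7% of all windows. The CACCC box (CACCC) stood in 5 of the 9 and in 52.0% of all. The other motifs were the Grhl site AACCGGTT, the AP-1 site TGANTCA, the TATA box TATAAA and the p63 half-site core ACATGT, which stand in 0.116%, 6.75%, 12.4% and 4.58% of all windows and had 0 matches in the 9. The Elovl4 window holds 2 overlapping GC boxes next to the start, and the Pnpla1 window holds 2 CACCC boxes. These are matches of letters in a short window and say nothing of which factors bind there.

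Sphingolipid synthesis starts with serine palmitoyltransferase, of which Sptlc3 encodes a catalytic subunit (chromosome 2, 139493913 to 139637674, plus strand, GRCm38). Its level, in CPM (counts scaled to library size), had a lowest, median and highest value of 4.10, 6.69 and 11.1 CPM in the 7 placode-enriched libraries, and of 20.2, 27.1 and 29.6 CPM in the 7 IFE libraries. The groups did not overlap, and Sptlc3 was lower in 7 of 7 pairs, with a log2 fold change of -1.86 ± 0.16 (approximate SE; adjusted p = 9.86e-07 in edgeR). The genes of the subunits Sptlc1 and Sptlc2 changed by less. Sptlc1 fell by 0.52 on the log2 scale (19.7 ± 2.68 against 28.3 ± 4.23 CPM, placode-enriched against IFE), and Sptlc2 by 0.30 (41.2 ± 6.14 against 50.6 ± 4.82 CPM; SD, n = 7 each).

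Elovl4 encodes the elongase that builds the extremely long fatty acids of barrier ceramides (chromosome 9, 83778692 to 83806277, minus strand). It ranged from 4.64 through a median of 7.07 to 10.7 CPM in the placode-enriched libraries and from 84.4 through 107 to 126 CPM in the IFE libraries. The highest placode-enriched library stayed far below the lowest IFE library. The log2 fold change was -3.84 ± 0.13 (approximate SE; adjusted p = 2.52e-10 in edgeR). Within the elongase family the direction was mixed. Elovl1, which also elongates saturated chains, fell (log2 -1.56), as did Elovl7 (-1.10) and Elovl6 (-0.36), whereas Elovl2, an elongase of polyunsaturated acids, rose by 1.04, and Elovl5 stood at 23.1 ± 3.24 against 25.7 ± 3.02 CPM (adjusted p = 0.281 in edgeR). Elovl3 was too low to be tested.

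Cers3 encodes the ceramide synthase that uses those long chains (chromosome 7, 66743504 to 66823691, plus strand). Its lowest, median and highest levels were 11.1, 13.3 and 17 CPM in the placode-enriched libraries and 27, 29.7 and 31.3 CPM in IFE libraries. Both groups were tight and did not overlap, and the pairs differed by between -1.28 and -0.86 on the log2 scale. The fitted change was -1.12 ± 0.09 (approximate SE; adjusted p = 4.85e-07 in edgeR). Its paralog Cers4 went the other way by a wide margin, at 42.1 ± 5.32 CPM in the placode-enriched libraries and 3.45 ± 0.58 CPM in the IFE libraries (SD, n = 7 each), a log2 fold change of 3.61 ± 0.11 (approximate SE; adjusted p = 1.01e-10 in edgeR). Cers5 also rose (0.35; 0.28 and not passed without the pair coded 11-5-2), while Cers2 (40.4 against 33.9 CPM), Cers6 (122 against 109 CPM) and Cers1 (0.932 against 1.34 CPM) did not pass.

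Ugcg encodes glucosylceramide synthase, which adds the glucose cap and also starts the synthesis of the glycosphingolipids found in most cells (chromosome 4, 59189257 to 59222833, plus strand). Its lowest, median and highest levels were 19.2, 31.1 and 39.1 CPM in the placode-enriched libraries and 29.8, 46.9 and 55.1 CPM in IFE libraries. The groups overlapped. Ugcg was lower in 6 of 7 pairs and higher in the pair coded 18-5, at 36.6 CPM in the placode-enriched and 29.8 CPM in the IFE library. The log2 fold change of -0.58 ± 0.14 was the smallest among the genes that passed (approximate SE; adjusted p = 0.00559 in edgeR). It did not pass in the 4 pairs without a 27-7 code taken alone (-0.49; adjusted p = 0.0911 in edgeR).

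Abca12 encodes the transporter that loads lipids into lamellar granules, and its loss causes harlequin ichthyosis (chromosome 1, 71242276 to 71414910, minus strand). Levels had a lowest, median and highest value of 4.81, 7.02 and 13.2 CPM in the placode-enriched libraries and of 125, 142 and 163 CPM in the IFE libraries. The groups did not overlap, and the highest placode-enriched library lay far below the lowest IFE library. The log2 fold change was -4.22 ± 0.15 (approximate SE; adjusted p = 2.52e-10 in edgeR). Among related transporters, Abca2 (-0.30) and Abca3 (-0.42) fell slightly, while Abca1 (30.1 against 26.5 CPM) and Abca7 (39.0 against 39.5 CPM) did not pass.

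Pnpla1 encodes the transacylase that moves linoleate from triglyceride onto the ceramide (chromosome 17, 28858411 to 28890309, plus strand). It stood between 0.295 and 1.27 CPM in the placode-enriched libraries, with a median of 0.429 CPM, and between 12.5 and 22.8 CPM in the IFE libraries, with a median of 17.2 CPM. The placode-enriched mean was 3.70% of the IFE mean. These low levels rest on 144 reads over 7 placode-enriched libraries and 4132 reads over 7 IFE libraries. The log2 fold change was -4.86 ± 0.25 (approximate SE; adjusted p = 8.96e-09 in edgeR). The related lipase genes Pnpla2, which starts triglyceride breakdown, and Pnpla3 rose instead, by 0.68 and 1.43.

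Abhd5 encodes the cofactor that brings lipases of this family to lipid droplets (chromosome 9, 122351608 to 122381524, plus strand). Its lowest, median and highest levels were 17, 18 and 21.8 CPM in the placode-enriched libraries and 31.6, 36.5 and 38.3 CPM in IFE libraries. The groups did not overlap, and the pairs lay close together, between -1.10 and -0.68. The log2 fold change was -0.95 ± 0.09 (approximate SE; adjusted p = 1.74e-06 in edgeR). Its exons share 950 bases with the antisense gene A730085K08Rik, which had 405 reads over the 14 libraries (the strand setting is not given), against 4336 reads of Abhd5 in the placode-enriched and 8376 in the IFE libraries.

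**Figure D1:**
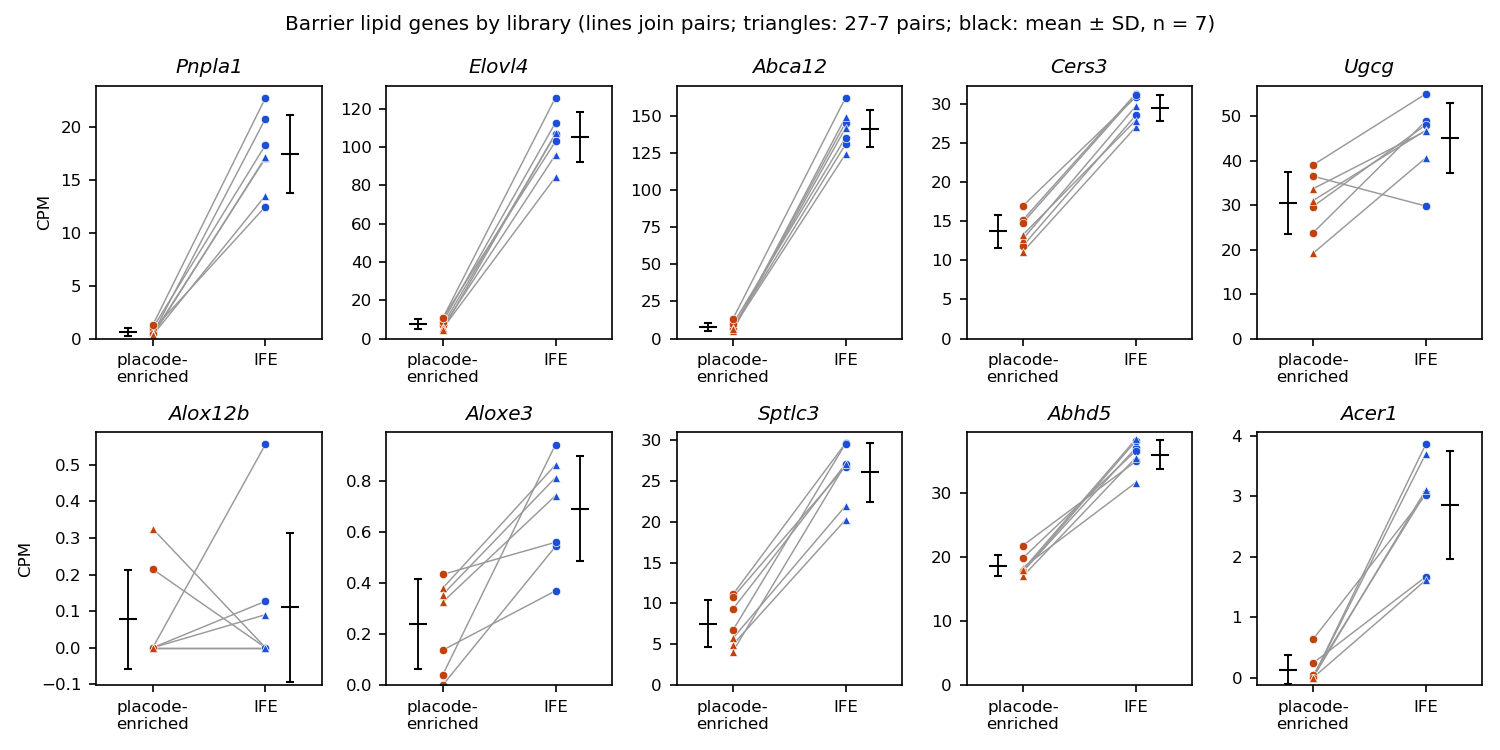
CPM of the 10 barrier lipid genes (vertical axes, each panel on its own scale) in placode-enriched and IFE libraries. Points are libraries, lines join the 2 libraries of a pair, triangles are the 3 pairs with 27-7 codes, and black marks are the mean ± SD of 7 libraries. For Elovl4 and Abca12 the placode-enriched libraries end at 10.7 and 13.2 CPM, below all IFE libraries, whereas for Ugcg the pair coded 18-5 slopes the other way.

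The lipoxygenase genes were close to the limit of detection. Alox12b and Aloxe3 encode the pair of enzymes that oxidise the ceramide-bound linoleate, and they lie in one cluster on chromosome 11 (69156989 to 69169792 and 69125896 to 69149115, both on the plus strand). Aloxe3 had 57 reads over the placode-enriched and 159 over the IFE libraries. It ranged from 0 to 0.433 CPM in the placode-enriched libraries and from 0.369 to 0.941 CPM in IFE libraries, and was lower in 7 of 7 pairs although the groups overlapped. Its log2 fold change of -1.72 ± 0.63 missed the threshold (approximate SE; adjusted p = 0.0516 in edgeR). Leaving out each pair in turn gave adjusted p of 0.0565 to 0.116. It passed without the pair block (-1.5; adjusted p = 0.042 in edgeR), with DESeq2 (-1.79; adjusted p = 0.0127) and with non-robust dispersion in edgeR (adjusted p = 0.046).

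Alox12b had 21 reads over all placode-enriched libraries and 21 over all IFE libraries, with 5 placode-enriched and 4 IFE libraries at 0. A library at 0 can still hold up to 3 reads' worth, which is 0.0833 to 0.126 CPM in the libraries at 0, counting error only. It was not tested, and a difference was not detectable at this depth. Alox5, Alox8 and Alox15 were also too low to be tested, whereas Alox12 and Alox12e were better covered. Alox12 fell (7.09 ± 1.76 CPM in the placode-enriched libraries and 37.1 ± 4.87 CPM in IFE libraries; log2 -2.41), and Alox12e, a lipoxygenase gene of mouse epidermis, rose to 5.31 ± 1.25 CPM in placode-enriched libraries, against 0.311 ± 0.264 CPM in the IFE libraries (SD, n = 7 each). The fold change, on a log2 scale, was 4.38 ± 0.49 (approximate SE; adjusted p = 1.34e-05 in edgeR). Reads can be split among related lipoxygenase genes, so these low values are uncertain.

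Acer1 encodes the alkaline ceramidase of differentiating keratinocytes, which breaks ceramide down to sphingosine (chromosome 17, 56953490 to 56982126, minus strand). It ranged from 0 to 0.635 CPM in placode-enriched libraries, with a median of 0, and from 1.61 to 3.86 CPM in IFE libraries, with a median of 3.05 CPM. Counts were 0 in 4 of 7 placode-enriched libraries and above 0 in all IFE libraries. The fitted log2 fold change of -5.29 ± 0.87 rests on 29 reads in the placode-enriched and 674 in the IFE libraries (approximate SE; adjusted p = 0.000351 in edgeR). In the 3 pairs with 27-7 codes the placode-enriched libraries were all at 0, so Acer1 was at least 90.3-fold lower there, taking 3 reads over the group as the floor. Acer2, a ceramidase expressed in many tissues, stood at 118 ± 21.8 CPM in the placode-enriched libraries and 98.9 ± 11.6 CPM in IFE libraries and did not pass (log2 0.25; adjusted p = 0.119 in edgeR). Acer3 fell (-0.82).

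**Figure D2:**
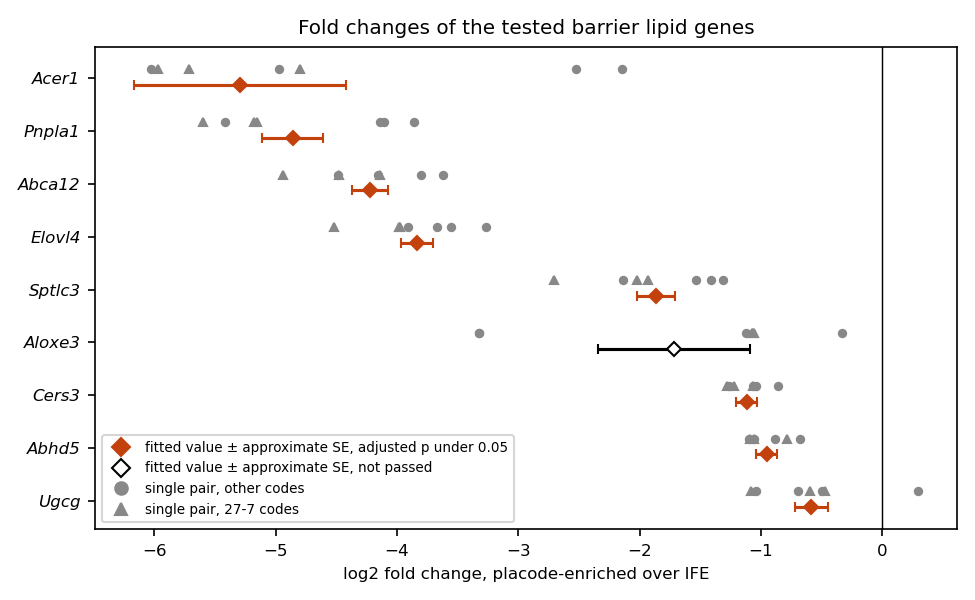
Log2 fold change of placode-enriched over IFE (horizontal axis) for the 9 tested barrier lipid genes. Diamonds are fitted values with approximate SE, filled where the adjusted p was under 0.05, and grey points are single pairs. Acer1, Pnpla1, Abca12 and Elovl4 lie at -3.84 or below, and the other 5 genes lie between -1.86 and -0.58.

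Changes in the group therefore fell into a deep and a shallow set, with Elovl4 at -3.84 and Sptlc3 at -1.86 on either side of the gap, a division made after the values were seen. Set against the suprabasal keratin gene Krt10 in each pair, Elovl4 fell more in 4 of 7 pairs and less in 3, with differences from -0.53 to 0.90 on the log2 scale. Pnpla1 and Abca12 fell more than Krt10 in 6 of 7 pairs each, and more than Krt1 in 7 of 7. Acer1, with few reads, fell more than Krt10 in 5 of 7 pairs and less in 2, and the same numbers held against Krt1. Cers3, Ugcg, Sptlc3 and Abhd5 fell less than Krt1 and less than Krt10 in 7 of 7 pairs. Aloxe3 did so too, but it had only 11 to 31 reads per IFE library. With a prior count of 2 its differences could hardly reach those of Krt1 and Krt10, so its result here decides nothing. Against the basal keratin gene Krt5, Cers3 and Abhd5 fell more in 7 of 7 pairs, and Ugcg in 4. Krt5 itself fell (log2 -0.54), whereas the basal keratin gene Krt14 stood at 0.19. Against Krt14, Cers3 and Abhd5 fell more in 7 of 7 pairs, and Ugcg in 6. These counts are descriptions without a test.

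Because reads accumulate with transcript length, levels of different genes were compared as CPM per kb of merged exons. In IFE libraries Elovl4 led with 34.8 ± 4.30 CPM per kb (SD, n = 7), and its lowest library lay above the highest of any other gene in the set. Abca12 (9.56), Sptlc3 (9.15), Cers3 (9.05) and Ugcg (8.67 CPM per kb) followed, and neighbours in this order overlapped. Abhd5 (6.04) overlapped with Ugcg but not with Pnpla1 (3.61), and Acer1 (1.18) was apart from both its neighbours. Aloxe3 (0.108) and Alox12b (0.0455 CPM per kb) were lowest and overlapped.

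In placode-enriched libraries the order was different. Ugcg stood first with 5.84 ± 1.34 CPM per kb, ahead of Cers3 (4.20), Abhd5 (3.13), Sptlc3 (2.64) and Elovl4 (2.51), all overlapping with their neighbours. Abca12 was next at 0.529 and Pnpla1 at 0.134 CPM per kb, each without overlap with the gene before it. Acer1 (0.0538), Aloxe3 (0.0373) and Alox12b (0.0317 CPM per kb) overlapped. In plain CPM the 10 genes summed to between 64.9 and 100.3 in placode-enriched libraries and between 353 and 459 in IFE libraries. Elovl4 and Abca12 together made up 17.8% of this sum in the placode-enriched and 61.0% in the IFE libraries, and Ugcg made up 35.1% and 11.2%.

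**Figure D3:**
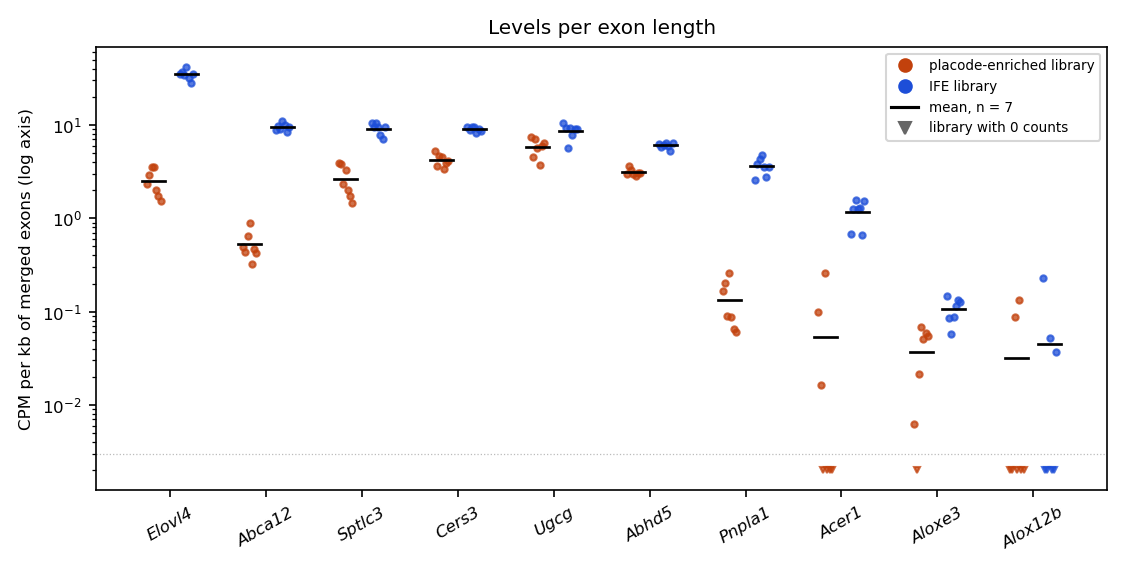
Level of each barrier lipid gene in CPM per kb of merged exons (vertical log axis), with genes ordered by their mean in IFE libraries. Points are libraries, bars are means of 7, and triangles at the bottom are libraries with 0 counts. Elovl4 leads in IFE libraries at 34.8 CPM per kb, whereas Ugcg leads in placode-enriched libraries at 5.84.

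The 3 pairs whose title codes start with 27-7 were set against the 4 other pairs. Of the 9 tested genes, 8 had a more negative change in the 27-7 pairs, as did 7675 of all 15382 genes tested. Of these 8, 4 differed at an unadjusted p under 0.05, as did 3.43% of all genes tested. The differences were -1.04 ± 0.44 for Pnpla1, -0.57 ± 0.20 for Elovl4 and -0.62 ± 0.27 for Sptlc3 (log2, approximate SE), and Acer1 was the fourth. Its fitted difference of -5.37 ± 10.97 cannot be read as a size, since its placode-enriched libraries in the 27-7 pairs were all at 0. Aloxe3 was the exception in direction, at 1.11 ± 1.3. None of the 15382 genes passed after adjustment (edgeR interaction test, smallest adjusted p = 0.902), so the difference between these sets of pairs did not hold after adjustment, and a date or batch behind the codes was not tested. Krt1 moved the same way (-0.47 ± 0.16; adjusted p = 0.902 in edgeR), whereas Krt10 stood at -0.12 ± 0.19. Acer1 was at 0 in 4 placode-enriched libraries, those of the 3 pairs with 27-7 codes among them. Of the other 8 tested genes, 4 had their lowest placode-enriched level in the library coded 27-7-2 and 3 in that coded 27-7-4. Among IFE libraries, 5 of the 9 had their lowest level in that coded 27-7-3.

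Beside the 10 genes, 7 lists of related genes were read, with 114 names, of which 113 were in the table and 99 were tested. These lists were chosen with earlier results of these data known. Of the 99, 49 fell (49.5%) and 14 rose (14.1%), with a median log2 fold change of -0.31. Of all genes tested, 15.6% were lower and 15.5% higher, so the share that rose was near that of all genes. In the list of fatty acid elongation and activation, 12 of 21 fell and 3 rose (median -0.41). Cyp4f39, the mouse enzyme that hydroxylates the far end of the long acyl chain, fell to 0.701 ± 0.501 CPM in placode-enriched libraries, against 13.5 ± 3.01 CPM in IFE libraries (log2 -4.40 ± 0.37; adjusted p = 9.46e-07 in edgeR). Hacd4 (-3.08) and the acyl-CoA synthetase gene Acsl1 (-2.63) fell too, and Acsl3 (1.06), Elovl2 and Slc27a1 (0.73) rose.

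In the ceramide synthesis list, 5 of 14 fell and 3 rose (median -0.13). Degs1, which introduces the double bond of the sphingoid base, fell by 0.87 on the log2 scale, and Sptssa (-0.60) and Ormdl2 (-0.56) fell as well. Degs2 rose with Cers4 and Cers5 (2.37), at 0.687 ± 0.268 CPM in the placode-enriched libraries and 0.156 ± 0.141 CPM in the IFE libraries (SD, n = 7 each). Leaving out 1 pair ended the call for Sptssa (-0.53 without 11-5-2, -0.58 without 1-6-3, -0.56 without 27-7-3), for Degs2 (2.28 without 1-6-3) and for Cers5 (0.28 without 11-5-2), and library-size scaling (-0.57) or no filter (-0.59) ended it for Sptssa. Of 14 genes for the head group and packaging of ceramides, 7 fell and 2 rose (median -0.33). Nipal4, whose loss causes ichthyosis, fell by 2.72 and the glycolipid transfer protein gene Gltp by 2.25 on the log2 scale. Gltp stood at 102 ± 14.8 CPM in the placode-enriched libraries and 488 ± 69.3 CPM in IFE libraries. The sphingomyelin synthase gene Sgms2 (-0.74) fell, and B4galt6 (1.38) and Vipas39 (0.39) rose.

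Of 15 genes of ceramide breakdown, 7 fell and 1 rose (median -0.33). Sphingosine-1-phosphate phosphatase Sgpp1 (-1.72), sphingosine kinase Sphk1 (-2.19) and Acer3 fell, and the neutral sphingomyelinase gene Smpd3 rose (2.60). Sphk1 rests on 65 reads over the placode-enriched libraries, and Smpd3 on 61 over the IFE libraries. In the 4 pairs without a 27-7 code alone, Sphk1 (adjusted p = 0.142 in edgeR), Acer3 (0.0644) and Smpd3 (0.222) did not pass, and Sphk1 did not in the 27-7 pairs alone either (0.106). In the lipoxygenase and hepoxilin list, 4 of 7 tested genes fell and 1 rose (median -0.97). Sdr9c7 (-3.64) and Ephx3 (-3.45), enzymes that act on oxidised acyl chains after the lipoxygenases, fell together with Alox12, and Alox12e rose. Sdr9c7 had 32 reads over the placode-enriched libraries, with 3 of 7 at 0. Of 11 triglyceride and lipid droplet genes, 4 fell and 3 rose (median -0.06). Of the triglyceride synthase genes in this list, Dgat1 did not pass (log2 0.0055; adjusted p = 0.983 in edgeR), whereas Dgat2 fell. Dgat2 stood at 3.69 ± 0.695 CPM in the placode-enriched libraries and 44.8 ± 9.94 CPM in IFE libraries (log2 -3.60 ± 0.14; adjusted p = 8.85e-10 in edgeR). The epidermal lipase genes Lipk (-5.13) and Lipm (-3.02) fell too, and the droplet coat gene Plin2 (0.30) rose with Pnpla2 and Pnpla3. The value for Lipk rests on 26 reads over the placode-enriched libraries, with 3 of 7 at 0, so its size is uncertain. The call for Plin2 was lost without any 1 of the 6 pairs other than 27-7-4 (0.26 to 0.32) and without a filter (0.31). Exons of Hacd4, Ormdl2, Lipm, Degs2, Smpd3 and, by 53 bases, Elovl1 overlap those of expressed genes on the opposite strand. So do those of some other named genes, such as Abca3 and Cers2. With the strand setting not given, reads of these overlaps cannot be told apart. Exons of Acsl3 share 244 bases with Utp14b on the same strand, where a strand setting would not separate the reads.

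Transcription factors of epidermal differentiation were the list with the lowest median among these 7, at -1.15, with 10 of 17 tested members lower and 1 higher. Grhl1 (-2.48 ± 0.07), Ovol1 (-2.19 ± 0.11) and Klf4 (-1.96 ± 0.11), which promote keratinocyte differentiation, fell. Trp63, which encodes the p63 factor of stratified epithelia, rose by 0.48 ± 0.06 on the log2 scale (1269 ± 73.6 CPM in the placode-enriched libraries and 911 ± 49.5 CPM in IFE libraries). Pparg, Ppara and Nr1h3, lipid-sensing nuclear receptor genes, were too low to be tested.

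**Figure D4:**
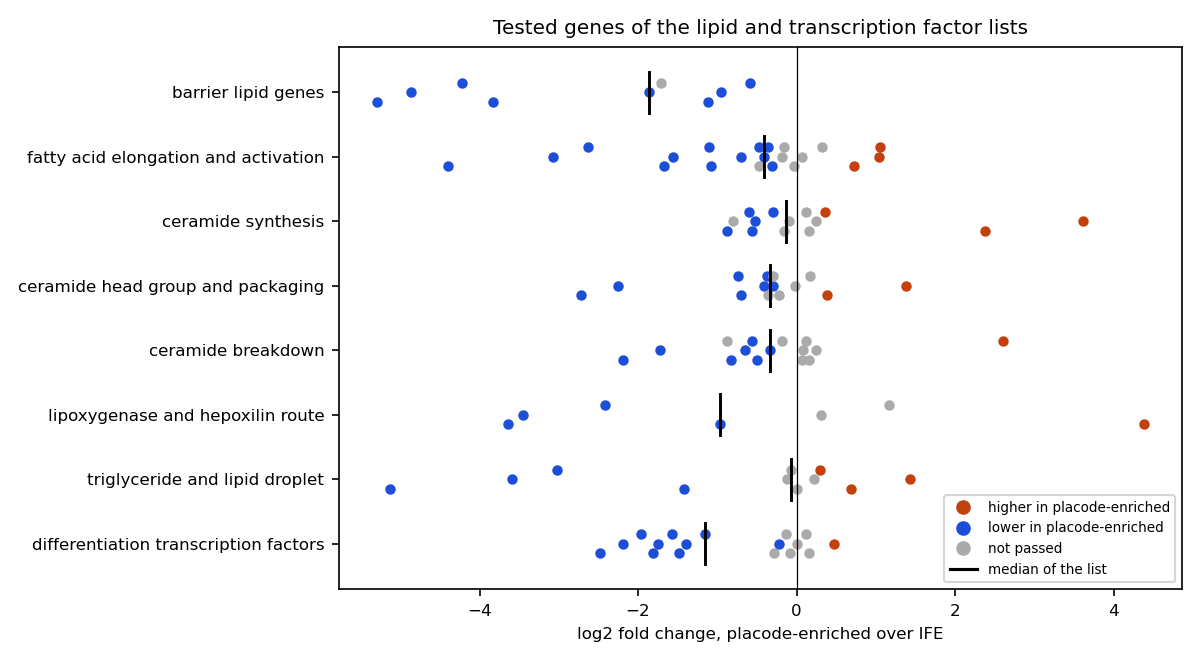
Log2 fold change of placode-enriched over IFE (horizontal axis) for every tested gene of 8 lists, with the barrier lipid genes in the top row. Each point is a gene, coloured by whether it was higher, lower or did not pass, and black bars are medians. The barrier lipid genes have a median of -1.86 and the triglyceride and lipid droplet genes one of -0.06.

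The genes whose levels over the 14 libraries were most like those of the barrier lipid genes were Nebl, Mgst1, Sh2d4a, Tgm1, Slc7a11, Tmem154, Dsc1, Cd44, Lmo7 and Rora. Likeness was the Pearson correlation of log2 CPM with the mean z score of the 9 tested genes, and it ran from 0.996 for Nebl to 0.986 for Rora. All libraries of a fraction share the gap between the fractions, so the correlation is given as a description. Tgm1, the transglutaminase of the cornified envelope, stood at 4.07 CPM in the placode-enriched libraries and 48.4 CPM in IFE libraries.

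Markers of suprabasal cells moved with these genes. All 12 tested suprabasal markers fell, and their summed level was 207 to 470 CPM in the placode-enriched libraries and 2928 to 4567 CPM in IFE libraries. Krt10 stood at 107 ± 35.6 and 1490 ± 266 CPM and Krt1 at 58.6 ± 19.8 and 755 ± 112 CPM (placode-enriched and IFE, SD, n = 7 each), so suprabasal transcripts were present in both fractions. Of 8 tested periderm markers, 6 fell and 2 rose, with sums of 24.4 to 44.6 and 95.9 to 115 CPM. Of 7 basal markers, 4 fell and 2 rose, with sums of 4287 to 5890 and 5339 to 6936 CPM. The call for Krt14, among those that rose, held in 11 of 19 alternative fits and in neither set of pairs alone. All 10 placode markers rose, Madcam1 of the sort among them, with sums of 1338 to 1945 and 179 to 251 CPM. All 8 tested melanoblast markers fell, with sums of 8.31 to 14.6 and 124 to 222 CPM. Dermal fibroblast sums were 1103 to 1895 and 918 to 1255 CPM (1 of 7 tested lower, 3 higher). The placode-enriched library had the lower fibroblast sum in 0 of 7 pairs. Those of Schwann cells and neurons were 2.86 to 6.05 and 6.67 to 14.46 CPM (2 of 4 lower). Endothelial sums were 0.945 to 3.84 and 0.214 to 1.43 CPM (1 of 1 tested higher), and those of leukocytes reached at most 1.57 and 1.21 CPM (0 of 1 called). Muscle sums reached at most 0.512 and 0.972 CPM (0 tested). The adipocyte sums of 1.20 to 4.16 and 6.87 to 9.51 CPM came almost wholly from Lpl (1 of 1 tested lower), and the defining marker Plin1 had a mean of 0 CPM in the placode-enriched libraries and 0.0145 CPM in IFE libraries, with Adipoq, Fabp4 and Cidec near 0 in both. The part that a different share of suprabasal, periderm, pigment or dermal cells had in these results was not tested.

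Library totals were 23.8 to 49.5 mega counts in placode-enriched and 23.8 to 39.5 mega counts in IFE libraries. Mitochondrial genes held 5.13% to 7.5% of counts in placode-enriched and 5.87% to 7.93% in IFE libraries, and structural noncoding RNA held 1.54% to 2.85% and 1.58% to 2.96%, so the ranges of the fractions overlapped in both.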

How the data were processed

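The authors deposited one table of raw counts for 14 libraries, whole numbers of reads per Ensembl gene with no normalization visible in the values. The submitters' processing notes name HTSeq, STAR (version given as 1.5), MultiQC, FastQC, Trimmomatic and bcl2fastq (2.17.1.14), and the builds GRCm38 and mm10. Which annotation release and strand setting were used, and how duplicate reads were handled, is not stated in these sources. Antisense neighbours may therefore share reads, and floors cover counting error only. Libraries were made from total RNA with the Ovation SoLo kit, per the labels' protocols.

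GENCODE M21, on GRCm38, supplied the symbols and positions for 25949 of the 26252 identifiers. The other 303 held 0.436% of counts. Fits used edgeR 4.0.16 with limma 3.58.1 under R 4.3.3. After filterByExpr 15382 genes were left. TMM scaling, a robust quasi-likelihood F test blocked by pair, and Benjamini-Hochberg adjustment over all genes followed, with a threshold of 0.05. Fold changes are placode-enriched over IFE (log2, prior count 0.125). Their approximate standard error is the unshrunk coefficient divided by the root of F. Pairwise differences used a prior count of 2. The design text and shared title codes give the pairs. Within pairs, residual deviations had a mean correlation of 0.0548 (-0.132 to 0.195 over the 7 pairs, above 0.1 in 2). Since each library pools embryos, p-values reflect only how much the pools varied. Both tests were run on simulated counts. For the difference between sets of pairs, the simulated counts varied less than the data do. The power of that test in these data is therefore not known. Tables and figures used Python 3.11.15 with pandas 2.3.3, numpy 2.4.6 and matplotlib 3.10.9.

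The members and lists were chosen with earlier results of these data known. From each of the 7 other lists, up to 3 passing genes per direction were named by size of change. Paralogs of the members, and a few list genes named beside their role, were added after the values were seen. Cert1 was read under its annotated name Col4a3bp, and Lipn, Flg and Des were not used here. The alternatives were a fit with no replicate block, 3 other scalings, no filter, a minimum of 1 CPM in at least 7 libraries, limma-voom, DESeq2 1.42.0, dispersion without robust fitting, removal of mitochondrial genes, removal of each pair, and each set of pairs by itself.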

Additional observations from a re-analysis of the deposited data

Results flagged for a closer look

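Dixon's test over 7 libraries or pairs was applied to 30 sets of values of the 10 genes, of which chance flags about 1 in 20, and 2 stood out. Acer1 stood at 0.635 CPM, on 22 reads, in the placode-enriched library coded 1-6-3, against 0 to 0.241 CPM in the other 6. Alox12b stood at 0.556 CPM, on 13 reads, in the IFE library coded 11-5-2, against 0 to 0.127 CPM in the other 6.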

How the results depend on the processing

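Of the 10 genes, 8 passed as lower in the full set of pairs, and 7 to 9 did under the alternatives, with 0 higher under any of them. Without the replicate block Aloxe3 passed (-1.5; adjusted p = 0.042 in edgeR), as it did with DESeq2 (-1.79) and with non-robust dispersion (-1.72), and no other call among the 10 genes changed without the block. In the 4 pairs without a 27-7 code alone, Ugcg did not pass (-0.49). Over all genes, 4786 were called with every pair, against 2331 in the 27-7 pairs alone and 3087 in the other pairs alone, where fewer libraries were tested. Those lower numbered 2402, against 1105 and 1540. Of the 7 other lists, 49 were called lower and 14 higher, against 32 lower in the 27-7 pairs alone and 9 higher in each set of pairs alone. The difference between the sets of pairs changed sign for Ugcg, from -0.41 to 0.030 over the left-out pairs. The value of 0.030 came without the pair coded 18-5, in which Ugcg was higher in the placode-enriched library. The difference also changed sign for Abhd5, from -0.14 to 0.035, at 0.035 without the pair coded 17-5 and 0.0082 without that coded 27-7-4. The cause was not tested. Other scalings moved the median of all genes by 0.0328 at most on the log2 scale. Among other named list genes, Sptssa, Degs2, Cers5, Sphk1, Pnpla3 and Plin2 did not pass in either set of pairs alone, Slc27a1, Sgms2, Vipas39 and Sdr9c7 did not in the 27-7 pairs alone, and Ormdl2, Acer3 and Smpd3 did not in the other pairs alone. The fitted change of Acer1 ran from -6.38 to -4.80 over the left-out pairs, and was -4.19 in the other pairs alone and -9.57 in the 27-7 pairs alone, where its placode-enriched libraries are at 0. Among the 10 genes, depth limits Alox12b, Aloxe3 and Acer1, whose reads are few. It also limits other named genes with few reads, such as Lipk, Sdr9c7 and Sphk1.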
